A study of Mus musculus with 8 samples.

Results

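Max and the genes of its repressor partners Mnt, Mxd1, Mxi1, Mxd3, Mxd4 and Mga were examined in RNA sequencing of mouse preSCs, a culture model of precancerous neuroendocrine lung cells. These 7 genes were taken from a list of the MAX network's partners and were found by symbol among the 23284 genes of the count tables. All 7 were counted well above the filter on low counts, which kept 13358 genes for testing. There were 4 libraries of preSCs that had received a guide RNA against Max (labelled Max KO and called MaxKO here), and 4 libraries of preSCs that had received a control guide (Ctrl). Both groups were derived from 129/SvJ; C57BL/6 animals that carried the reporter Chga-GFP and lox alleles (written Rblox/lox, p53lox/lox and p130lox), so the controls share that background. The populations were polyclonal, that is, selected with puromycin and expanded without cloning, so a MaxKO library may mix edited and unedited cells, and the edited share was not measured here. The labels do not state that the 4 libraries of a group were grown separately, and the p-values therefore describe the spread among these libraries, part or all of which may be technical.

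MAX is a small protein of the basic helix-loop-helix leucine zipper class that binds DNA at E-boxes, with CACGTG as the preferred core. It is the shared partner of the network: paired with MYC, MYCN or MYCL it activates genes, and paired with MNT or with the MXD proteins (MXD1, MXI1, MXD3 and MXD4) it recruits SIN3 and histone deacetylases and represses them. MGA, a very large partner with a second, T-box DNA-binding domain, is the scaffold of the Polycomb complex PRC1.6, which keeps germ cell genes silent in embryonic stem cells. In human small cell lung cancer, MAX and MGA are among the network genes found inactivated.

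The promoters of the members were read first for the E-box that MAX complexes bind. RefSeq windows of 300 bases (build GRCm38.p6), from 250 bases before a transcript's start to 50 after it, matched all 7 genes, with 3 windows for Mxi1. The letters CACGTG, which read the same on both strands, were present in the windows of 3 members, Max, Mnt and Mxd4, and in those of 2187 of all 27025 genes in the table (8.09%). The related motif CACGCG was searched on both strands and was found once, in the window of Mga, against 10.5% of all genes. The motif CATGTG, also searched on both strands, was found once, in 1 of the windows of Mxi1, against 15.9% of all genes. The windows of Mxd1 and Mxd3 held none of the 3 motifs, which says only that these letters are not in those 300 bases. Shown here are the window of the targeted gene Max (chr12:76962199-76962498, minus strand), that of Mnt, the member whose count rose (chr11:74830674-74830973, plus strand), that of Mxd4, the third one with a match (chr5:34187661-34187960, minus strand), and that of Mxd1, the member whose count fell (chr6:86669110-86669409, minus strand). Each is written 5′ to 3′ along its gene, with CACGTG in capitals.
Max: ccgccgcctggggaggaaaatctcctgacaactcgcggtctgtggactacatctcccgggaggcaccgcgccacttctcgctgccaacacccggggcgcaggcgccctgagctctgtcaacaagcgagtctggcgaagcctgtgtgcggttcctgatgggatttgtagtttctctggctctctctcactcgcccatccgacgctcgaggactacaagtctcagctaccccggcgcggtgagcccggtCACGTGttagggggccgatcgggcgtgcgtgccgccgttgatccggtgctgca
Mnt: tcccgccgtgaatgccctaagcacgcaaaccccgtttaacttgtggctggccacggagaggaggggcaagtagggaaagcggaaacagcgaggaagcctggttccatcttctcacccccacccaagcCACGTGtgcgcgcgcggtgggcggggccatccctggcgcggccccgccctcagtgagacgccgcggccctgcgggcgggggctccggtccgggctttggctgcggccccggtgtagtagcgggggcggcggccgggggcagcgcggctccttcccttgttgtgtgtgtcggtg
Mxd4: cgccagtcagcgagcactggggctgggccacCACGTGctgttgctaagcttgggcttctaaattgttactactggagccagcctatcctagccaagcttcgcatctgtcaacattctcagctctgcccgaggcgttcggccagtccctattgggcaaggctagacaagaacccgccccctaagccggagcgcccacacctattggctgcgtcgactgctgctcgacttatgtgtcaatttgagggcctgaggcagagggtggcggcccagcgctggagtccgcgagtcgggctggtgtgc
Mxd1: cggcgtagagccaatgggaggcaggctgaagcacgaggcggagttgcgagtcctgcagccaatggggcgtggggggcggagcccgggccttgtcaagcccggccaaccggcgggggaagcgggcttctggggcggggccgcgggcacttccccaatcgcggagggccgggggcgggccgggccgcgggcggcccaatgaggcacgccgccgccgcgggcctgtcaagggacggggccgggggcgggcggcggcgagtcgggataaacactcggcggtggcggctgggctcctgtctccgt
The E-box of Max began 3 bases upstream of the annotated start and thus lay across it, that of Mnt 123 bases upstream and that of Mxd4 219 bases upstream. Every window of the members was richer in G and C than the median of all windows (52.7%). The values were 64.7% for Max, 70.7% for Mnt, 76.7% for Mxd1, 71% for Mxd3, 61% for Mxd4 and 60% for Mga. The windows of Mxi1 were at 56%, 63% and 75%. Binding of MAX or of its partners to these windows was not measured in the data used here.

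Reads assigned to genes numbered 14952291 to 19480947 per MaxKO library and 13711278 to 19804949 per Ctrl library, and the members were represented by 472 (Mxd1 in MaxKO library 2) to 3517 reads (Mga in control library 1) per library. Levels are given as CPM, the count of a gene relative to all reads assigned to genes, with TMM scaling between libraries. The control libraries were not uniform. Controls 3 and 4 had 23.3% and 23.4% of their uniquely aligned reads outside annotated exons, against 18.5% and 18.6% in controls 1 and 2, while the MaxKO libraries had 20.5% to 21.5%. Controls 1 and 2 were alike (Pearson correlation of log2 CPM across genes 0.995), whereas controls 3 and 4 stood apart from them and from each other (0.973 to 0.983), and pairs of MaxKO libraries were at 0.993 to 0.995. The neuroendocrine label of the cultures was checked by defining genes. Insm1 was at 701 ± 83 CPM in MaxKO and 700 ± 65.7 CPM in Ctrl, and Chga at 442 ± 34 CPM in MaxKO and 457 ± 8.75 CPM in Ctrl (SD, n = 4 each). Of the 9 neuroendocrine markers listed, Uchl1 rose by 0.41 on the log2 scale, Chgb and Dll3 fell by 0.37 and 0.51 (adjusted p = 0.0496, 0.00183 and 0.00398, edgeR), and 6 were not called. For comparison, 10.9% of all tested genes were called higher and 12.2% lower in MaxKO. Calca, which was not called, was at 524 to 589 CPM in MaxKO and 399 to 1980 CPM in Ctrl libraries. Markers of blood cells summed to 2.46 to 4.27 CPM in MaxKO libraries and 2.97 to 6.00 CPM in Ctrl libraries over 7 genes, nearly all of it Cd68, and those of endothelium to 0.887 to 1.22 CPM in MaxKO and 1.01 to 2.12 CPM in Ctrl over 5 genes, with Emcn at 0. Markers of other lung epithelium summed to 6.30 to 8.60 CPM in MaxKO and 8.30 to 9.62 CPM in Ctrl over 6 genes, with Krt5 at 0. Of 8 fibroblast genes, which summed to 49.4 to 65.7 CPM in MaxKO and 24.5 to 44.7 CPM in Ctrl, nearly all counts belonged to Dcn, while Lum was at 0 and Col1a1 averaged 0.128 CPM in MaxKO and 0.315 CPM in Ctrl. Dcn rose by 0.77 on the log2 scale (adjusted p = 0.0124, edgeR). Pdgfra, with 104 reads in all, was at 0.0522 to 0.339 CPM in MaxKO and 0.785 to 2.27 CPM in Ctrl libraries. It passed the filter on low counts only through the Ctrl libraries, so its test is not given. No common direction is read from this list. The part of these markers in the differences of the members was not tested.

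The comparison asked how the levels of the network's genes differed in preSCs in which Max had been targeted. Of the 7 members, Mnt rose, Mxd1 fell, and Max, Mxi1, Mxd3, Mxd4 and Mga did not pass the threshold, an adjusted p under 0.05 in edgeR's quasi-likelihood test with Benjamini-Hochberg adjustment over all tested genes. Over all tested genes 23.1% passed this threshold, 10.9% higher and 12.2% lower in MaxKO, so that 2 called members of 7 is close to the background share. The median log2 fold change of the members was 0.07, and that of all tested genes was -0.004. The 4 MaxKO values did not overlap the 4 Ctrl values for the same pair of members, Mnt and Mxd1, and for 26.4% of all tested genes. In a bulk library, a lower level in every cell and loss of the transcript from some of the cells cannot be told apart.

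**Figure D1:**
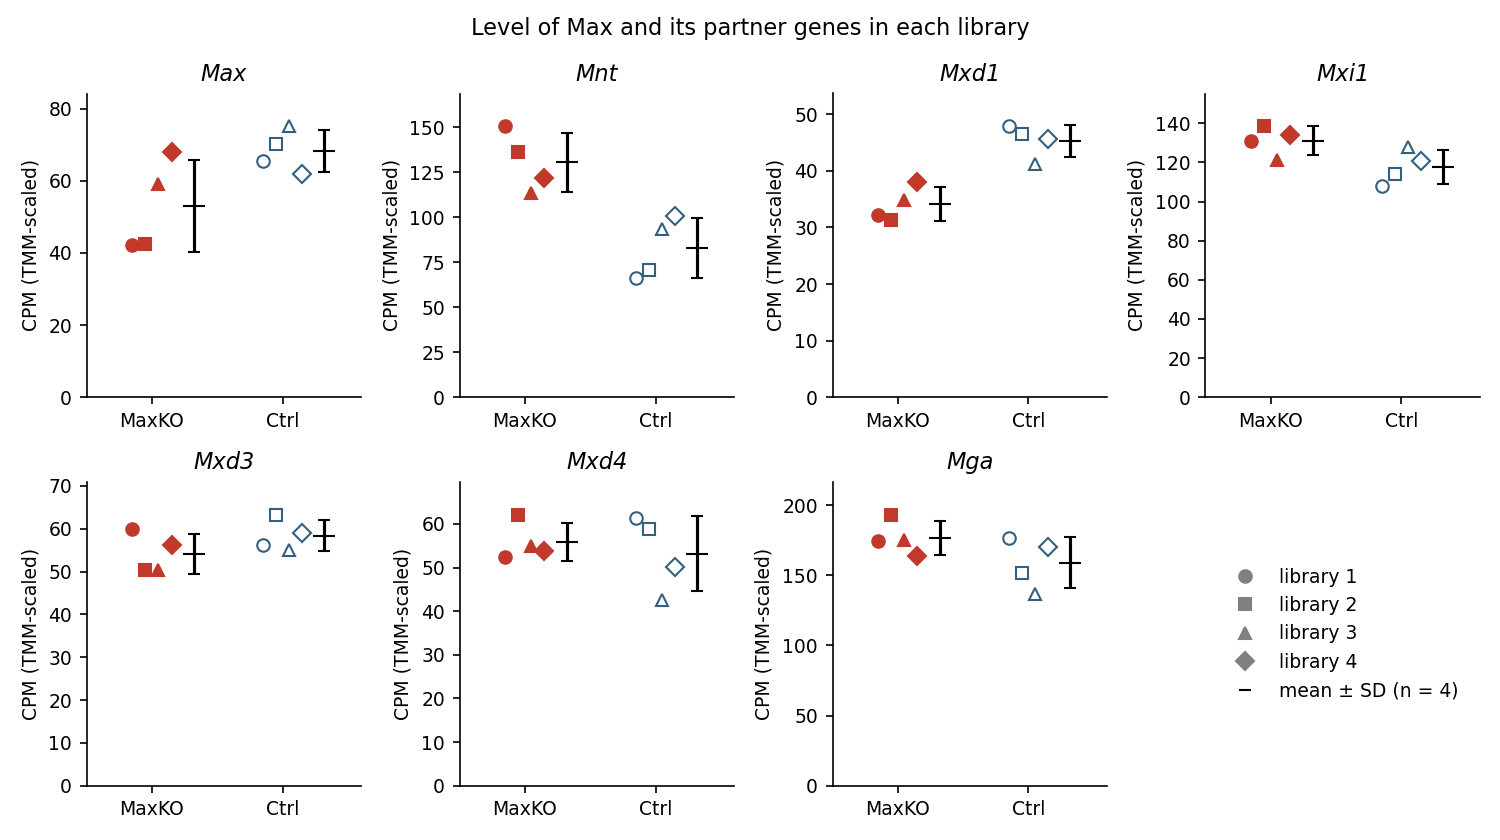
Level of each of the 7 genes in each library, in TMM-scaled CPM (vertical axis, from 0), with MaxKO libraries at the left (filled) and Ctrl libraries at the right (open). Marker shapes give the library number and the bar gives mean ± SD (n = 4). All 4 MaxKO points lie above the Ctrl points for Mnt and below them for Mxd1, and the MaxKO points of Max spread from 42.3 to 68.0 CPM.

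Max, the targeted gene, was measured at 42.3, 42.3, 59.1 and 68.0 CPM in MaxKO libraries 1 to 4 and at 65.5, 70.2, 75.2 and 61.9 CPM in Ctrl libraries 1 to 4. MaxKO libraries 1, 2 and 3 lay below every control, and MaxKO library 4 lay within the range of the controls. The difference was -0.37 on the log2 scale (SE 0.15, unadjusted 95% interval -0.69 to -0.05), and it did not pass the threshold (adjusted p = 0.0955, edgeR). Without MaxKO library 4 it was -0.52 and passed (adjusted p = 0.0228, edgeR), while leaving out any other library gave -0.43 to -0.27 and no call. Because small insertions and deletions at a guide's cut site alter the protein without necessarily lowering the transcript, these counts cannot give the extent of the knockout.

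The MaxKO libraries were unequal in Max to a degree that most genes were not. The SD of log2 CPM among the 4 MaxKO libraries was 0.35 for Max, larger than that of 93.6% of all tested genes, whose median was 0.11. Among the 4 Ctrl libraries the SD of Max was 0.12, larger than that of 26.8% of tested genes, whose median was 0.18. Mxd1, Mxd3 and Mxi1 also ranked higher in spread among the MaxKO libraries (above 59.7%, 57.6% and 32% of genes) than among the controls. Among the controls they were above 15.9%, 14.7% and 20.7% of genes. Their SDs in MaxKO were 0.13, 0.12 and 0.08, below that of Max. Mnt, the next most variable member in MaxKO, had an SD of 0.18 there, above 77.4% of genes, and 0.29 in the controls, above 77.0% of genes.

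Mnt encodes the most broadly expressed of the MAX-dependent repressors, which limits MYC activity in proliferating cells. It was measured at 151, 136, 113 and 122 CPM in MaxKO libraries 1 to 4 and at 66.4, 70.7, 93.5 and 101 CPM in Ctrl libraries 1 to 4. The lowest MaxKO library thus lay above the highest control, but controls 3 and 4 lay closer to the MaxKO libraries than controls 1 and 2 did. Mnt rose 1.58-fold (log2 fold change 0.66, SE 0.14, 95% interval 0.36 to 0.96, adjusted p = 0.00525, edgeR, n = 4 each). The rise was 0.93 against controls 1 and 2 alone and 0.42 against controls 3 and 4 alone, with adjusted p = 6.85e-07 and 0.0191 in edgeR, and it was called in all 8 fits that left out 1 library (0.56 to 0.77, adjusted p up to 0.0235). The share of reads outside exons moved with Mnt among the controls, being higher in controls 3 and 4. With that share as a term in the fit the rise was 0.67 (SE 0.08). The MaxKO libraries lay between controls 1 and 2 and controls 3 and 4 in that share, so the term could hardly move the difference. The part of this share in the rise was not tested.

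Mxd1 encodes the founding member of the MXD proteins, which typically increases as cells leave the cycle and differentiate. It was measured at 32.2, 31.3, 34.9 and 38.1 CPM in MaxKO libraries 1 to 4 and at 47.9, 46.5, 41.3 and 45.6 CPM in Ctrl libraries 1 to 4. The groups did not overlap, and the closest pair was MaxKO library 4 and control 3. Mxd1 fell by 0.41 on the log2 scale (SE 0.09, 95% interval -0.60 to -0.22, adjusted p = 0.0053, edgeR, n = 4 each), or 1.33-fold. The fall was called in all 8 fits that left out 1 library (-0.47 to -0.37, adjusted p up to 0.0253) and against either pair of controls (-0.47 with controls 1 and 2, and -0.36 with controls 3 and 4). Mxd1 and Mnt, whose products repress through the same partner and the same co-repressor, thus changed in opposite directions.

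**Figure D2:**
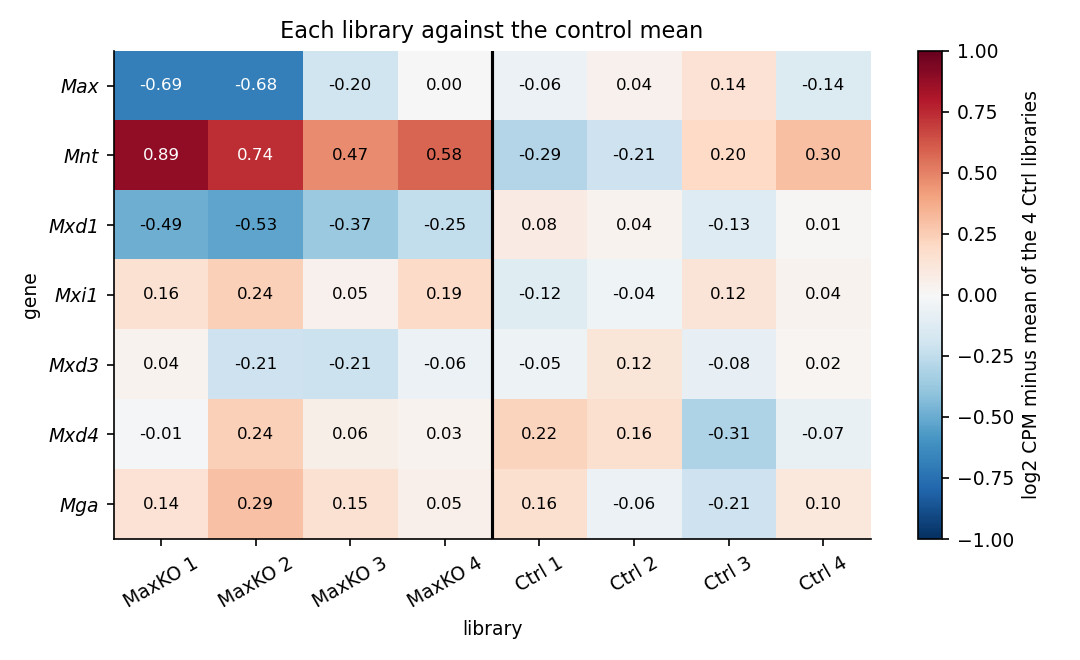
Each library's log2 CPM minus the mean of the 4 Ctrl libraries (colour and printed value) for the 7 genes, MaxKO libraries left of the line and Ctrl libraries right of it. MaxKO libraries 1 and 2 hold the lowest values of Max (-0.69 and -0.68) and of Mxd1 (-0.49 and -0.53) and the highest of Mnt (0.89 and 0.74).

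Among the MaxKO libraries, those with the least Max had the most Mnt and the least Mxd1. MaxKO libraries 1 and 2, at -0.69 and -0.68 of the control mean in Max on the log2 scale, were at 0.89 and 0.74 in Mnt and at -0.49 and -0.53 in Mxd1. MaxKO libraries 3 and 4, at -0.20 and 0.00 in Max, were at 0.47 and 0.58 in Mnt and at -0.37 and -0.25 in Mxd1. MaxKO library 4, whose Max level matched the controls, thus still had more Mnt and less Mxd1 than any control. This is a description of 4 libraries, and no relation was tested.

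Ratios between members within a library do not depend on the scaling between libraries, and gene length cancels when they are compared between groups. The number of Mnt counts per Max count was 3.57, 3.21, 1.92 and 1.8 in MaxKO libraries 1 to 4 and 1.01, 1.01, 1.24 and 1.62 in Ctrl libraries 1 to 4. The groups did not overlap, but MaxKO library 4 and control 4 lay close together. There were 4.68, 4.35, 3.25 and 3.21 Mnt counts per Mxd1 count in MaxKO libraries 1 to 4 and 1.39, 1.52, 2.27 and 2.21 in Ctrl libraries 1 to 4, and here the gap between the groups was wider. The log2 ratio of Mxd1 to Max averaged -0.60 ± 0.23 in MaxKO and -0.59 ± 0.20 in Ctrl libraries (SD, n = 4 each), so that the levels of this pair differed by about as much in either group. Mxi1 per Max also did not overlap, with log2 ratios of 0.98 to 1.71 in MaxKO and 0.70 to 0.96 in Ctrl libraries, whereas Mga per Max overlapped, with 1.27 to 2.19 in MaxKO and 0.86 to 1.45 in Ctrl libraries. No test was made on these ratios, since their direction follows from the members' own changes, which were known.

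**Figure D3:**
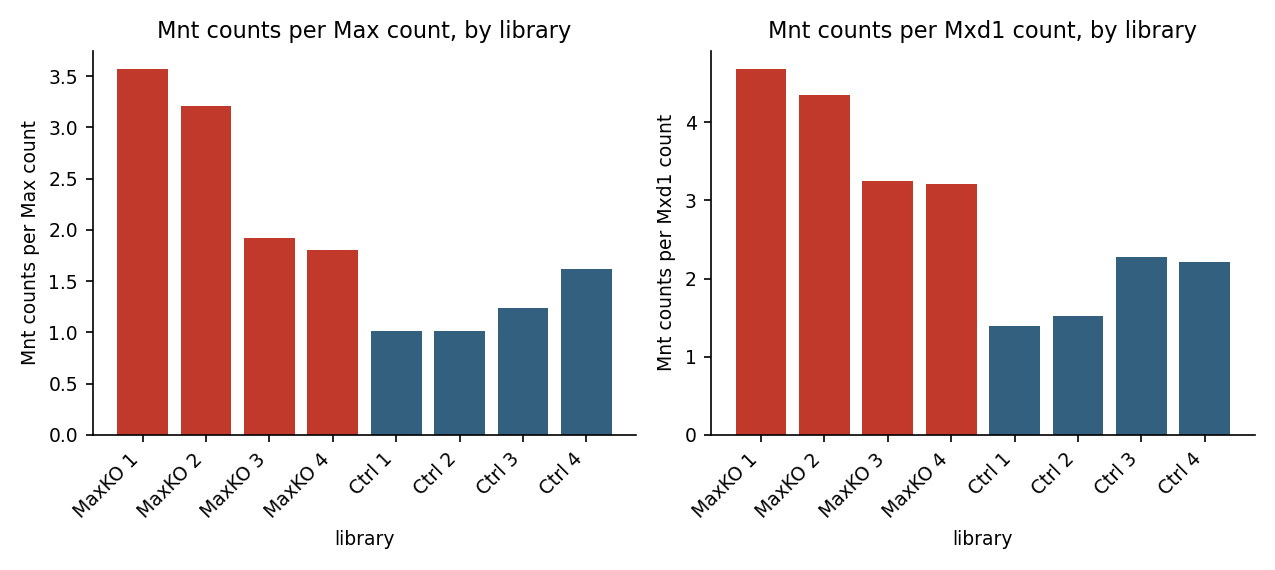
Number of Mnt counts per Max count (left) and per Mxd1 count (right) in each library (bars from 0; MaxKO red, Ctrl blue). The MaxKO bars run from 1.8 to 3.57 per Max count and from 3.21 to 4.68 per Mxd1 count, all above the highest control (1.62 and 2.27).

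The remaining MXD genes moved little. Mxi1, whose product represses in the same way as MXD1, was at 131, 139, 121 and 134 CPM in MaxKO libraries 1 to 4 and at 108, 114, 128 and 120 CPM in Ctrl libraries 1 to 4, with MaxKO library 3 inside the range of the controls. Its difference of 0.16 (SE 0.08, 95% interval -0.01 to 0.32) did not pass the threshold (adjusted p = 0.16, edgeR), but it passed against controls 1 and 2 alone (0.24, adjusted p = 0.0113, edgeR) and was 0.07 against controls 3 and 4 alone. Mxd3, the family member expressed in S phase of proliferating progenitors, was at 54.2 ± 4.65 CPM in MaxKO and 58.4 ± 3.69 CPM in Ctrl libraries (SD, n = 4 each). Its difference of -0.11 (95% interval -0.29 to 0.07, adjusted p = 0.394, edgeR) was within the spread between libraries. Mxd4, found in other tissues in differentiating cells, was at 55.8 ± 4.35 CPM in MaxKO and 53.2 ± 8.58 CPM in Ctrl libraries (SD, n = 4 each), with a difference of 0.07 (95% interval -0.18 to 0.31, adjusted p = 0.72, edgeR). Its direction depended on the controls: it was -0.02 without control 3, -0.11 against controls 1 and 2 alone and 0.26 against controls 3 and 4 alone, none of them past the threshold. Control 3 held the lowest level of Mxd4 among the controls (42.6 CPM), as it did of Mxd1, Mxd3 and Mga, and it held the highest of Max and Mxi1.

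Mga was at 175, 193, 175 and 164 CPM in MaxKO libraries 1 to 4 and at 177, 152, 137 and 170 CPM in Ctrl libraries 1 to 4. The groups overlapped, with controls 1 and 4 inside the range of the MaxKO libraries. Its difference was 0.15 (SE 0.09, 95% interval -0.05 to 0.35, adjusted p = 0.257, edgeR), and it was not called in any of the 19 alternative fits (0.09 to 0.20). The interval runs from a 0.969-fold to a 1.28-fold level in MaxKO relative to Ctrl.

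**Figure D4:**
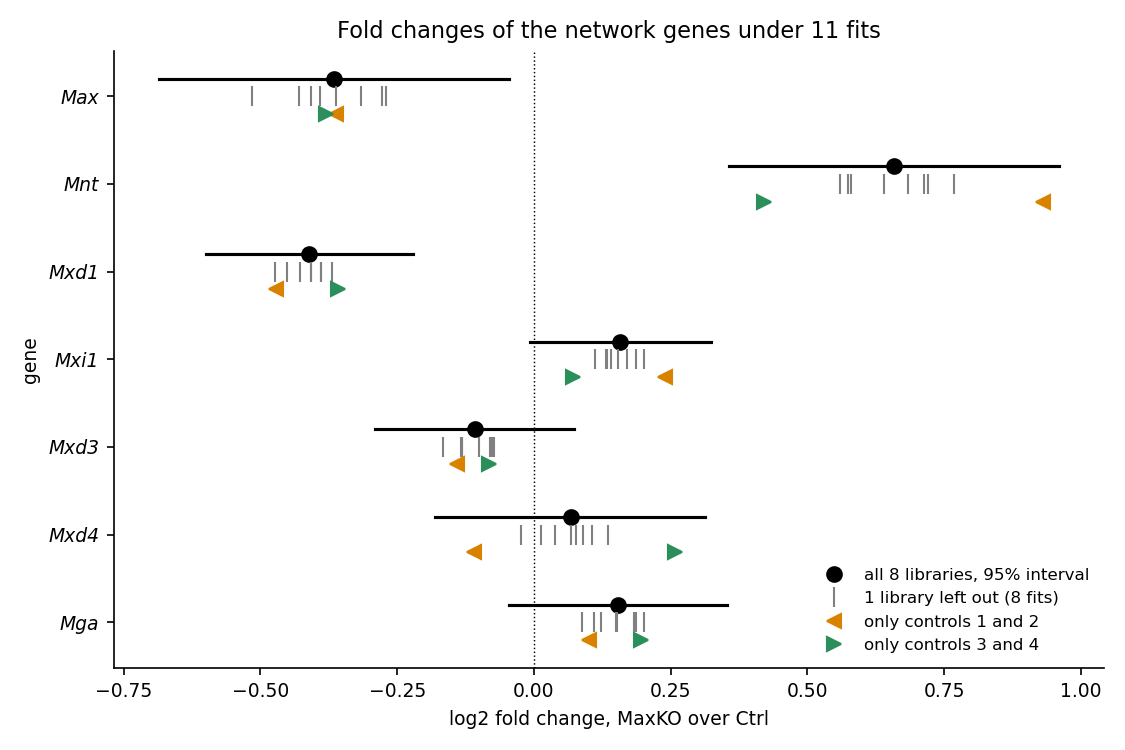
Log2 fold change of MaxKO over Ctrl (horizontal axis) for the 7 genes. Black points and lines give the fit to all 8 libraries with its unadjusted 95% interval, grey ticks the 8 fits without 1 library, and triangles the fits with only controls 1 and 2 or only controls 3 and 4. Mnt lies right of 0 and Mxd1 left of it in every fit shown, and Mxd4 falls on both sides.

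Counts of 3 members could include or lack reads at bases shared with another gene, because neither strand setting nor annotation of the counting is given. In GENCODE vM21 (GRCm38), exons of Mxi1 shared 194 bases (2.84% of its exonic length) with Gm10197, those of Mxd3 shared 105 bases (4.43%) with Prelid1, and those of Mxd4 shared 514 bases (6.06%) with Gm42846, each on the opposite strand. Max, Mnt, Mxd1 and Mga, the targeted gene and both called members among them, shared no exonic base with another gene in that annotation.

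To compare levels between the genes, CPM were divided by the length of all exons of a gene in GENCODE vM21, which may differ from the annotation used for counting. Per kilobase, Mnt stood highest in MaxKO libraries, at 28.2 ± 3.55 CPM per kb against 17.9 ± 3.63 in Ctrl libraries, where it ranked the third (SD, n = 4 each). Mxd3 was at 22.9 ± 1.96 CPM per kb in MaxKO and 24.7 ± 1.56 in Ctrl libraries, the highest level among the controls. Next in MaxKO libraries came Mxi1 (19.2 ± 1.09 CPM per kb, against 17.2 ± 1.26 in Ctrl) and Max (14.7 ± 3.56, against 19.0 ± 1.6 in Ctrl). Mga followed at 11.5 ± 0.799 CPM per kb in MaxKO and 10.4 ± 1.18 in Ctrl libraries. Mxd4 (6.58 ± 0.513 CPM per kb in MaxKO and 6.28 ± 1.01 in Ctrl) and Mxd1 (4.83 ± 0.431 in MaxKO and 6.41 ± 0.404 in Ctrl) stood lowest. In MaxKO libraries, the neighbours Mnt and Mxd3, Mxi1 and Max, and Max and Mga differed by less than their summed SD, and in Ctrl libraries this held for Max and Mnt, Mnt and Mxi1, and Mxd1 and Mxd4. With the longest transcript in place of all exons, Max had the highest mean of the 7 in the controls. It was at 27.3 ± 6.59 CPM per kb in MaxKO and 35.1 ± 2.96 in Ctrl libraries. Mxd3 then stood above Mnt in MaxKO (31.1 ± 2.67 and 28.4 ± 3.58), so the order of the means at the top rests on the length used. The lead of Max over Mxd3 in Ctrl (1.6) and that of Mxd3 over Mnt in MaxKO (2.7) were less than their summed SDs (5.08 and 6.25). Mxd1 stood lowest of the 7 in MaxKO with either length.

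**Figure D5:**
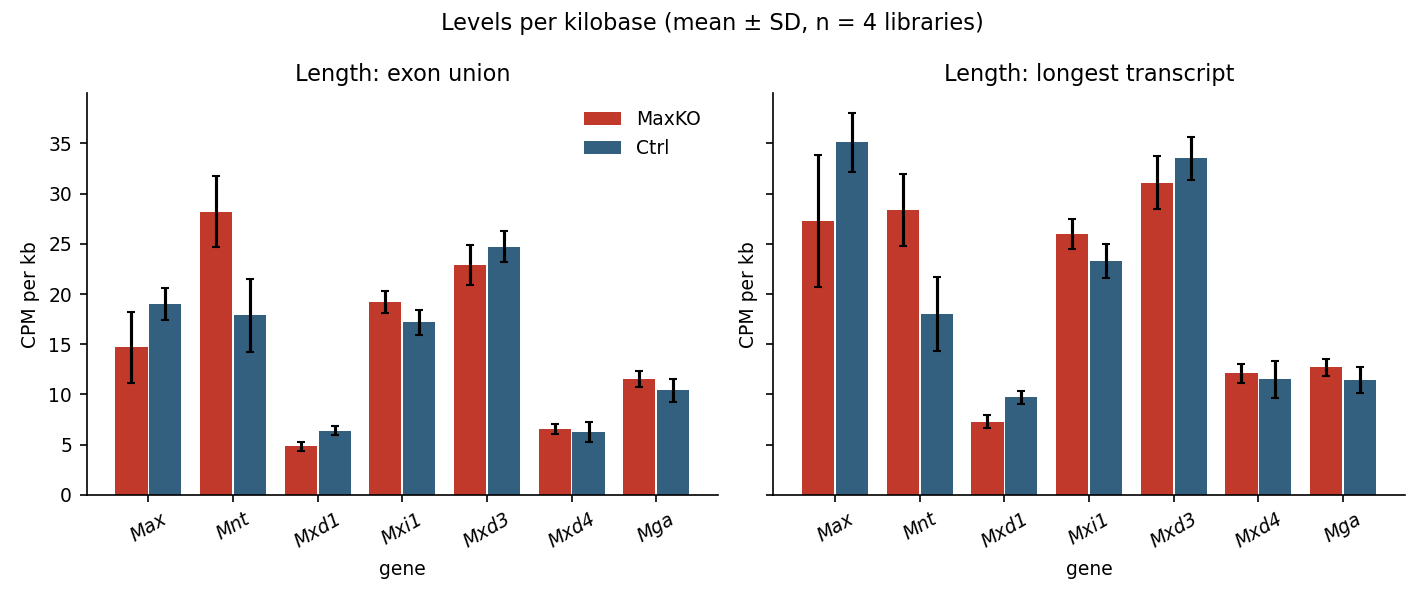
Levels in CPM per kilobase (bars from 0, mean ± SD, n = 4 libraries; MaxKO red, Ctrl blue) with the length taken from all exons (left) or from the longest transcript (right). Mnt is the gene whose MaxKO bar stands farthest above its Ctrl bar, and the bar of Max nearly doubles in height between the panels.

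The genes whose pattern over the 8 libraries was most like that of a member were found by the smallest root mean square difference of log2 CPM, each gene centred on its own mean. For Mnt these were Igf1r (0.07), Tbc1d4 (0.08) and Klhl25 (0.08), against a root mean square of 0.40 for Mnt's own pattern. For Mxd1 they were Inpp5a (0.04), Ift172 (0.05) and Ttc8 (0.05), against 0.23 for Mxd1's own pattern. For Max they were Sema3g (0.10), St6galnac4 (0.10) and Sh2d5 (0.11), against 0.30 for Max's own pattern, so that the pattern of Max was matched less closely than those of Mnt and Mxd1. They are the nearest among all genes searched, so their own differences follow from the choice and are not given.

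Among the other genes that pair with MAX or with its relative MLX, Mycn fell by 0.44 on the log2 scale (adjusted p = 0.0191, edgeR), and Myc and Mycl1 did not pass the threshold. Myc was at 26.3 to 30.1 CPM in MaxKO libraries and at 23.7 to 176 CPM in Ctrl libraries (-1.38, adjusted p = 0.136, edgeR), so that the controls spread widely. Without control 4, and against controls 1 and 2 alone, 2 of these 3 genes were lower. These fits called 27.8% and 44.6% of all tested genes in either direction. The Mycn call ended without MaxKO library 2 or 3 (adjusted p up to 0.0648). Mlx (0.24) and Mlxip (0.26, the gene of MondoA), which form a parallel arm of the network, rose with adjusted p = 0.0174 and 0.0391 in edgeR, and Mlxipl did not pass. Over all tested genes 10.9% were called higher and 12.2% lower in the full data. The call of Mlx ended without MaxKO library 1 or 3 or control 1 or 2 (adjusted p up to 0.0637), and that of Mlxip without any 1 MaxKO library or control 1 or 2 (up to 0.13), with upper-quartile scaling (0.0834) and, as for Mlx, against controls 3 and 4 alone (0.202, and 0.0801 for Mlx).

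Of 18 genes of the SIN3, histone deacetylase and NCoR co-repressors, through which MNT and the MXD proteins act, none rose, 3 fell and 15 were not called (median -0.06, against -0.004 for all genes). Over all genes 12.2% were called lower and 23.1% in either direction, so the share called here is near the background. The groups did not overlap for 3 genes, Arid4a, Brms1l and Suds3, a share below the 26.4% of all tested genes. Suds3 was higher in MaxKO and not called. Against controls 1 and 2 alone, 2 were higher and 6 lower, but that fit called 44.6% of all tested genes, so this count too is near the background. Without any filter 1 was lower, and 15.4% of all tested genes were called. The SIN3 subunit gene Arid4a fell to 48.7 ± 6.18 CPM in MaxKO, against 68.5 ± 4.24 CPM in Ctrl libraries (SD, n = 4 each; -0.49, adjusted p = 0.00329, edgeR), and was called in all 8 fits without 1 library. Its paralog Arid4b fell by 0.29 on the log2 scale (adjusted p = 0.048, edgeR), a call that ended without MaxKO library 2, 3 or 4 or control 1 or 2 (adjusted p up to 0.125), with limma-voom (0.0547), without any filter (0.0526) and against controls 3 and 4 alone (-0.13, 0.336). Brms1l fell by 0.24 (adjusted p = 0.037, edgeR), a call that ended without MaxKO library 1, 2 or 3 or control 1, 2 or 4 (up to 0.109), without any filter (0.0732) and against controls 3 and 4 alone (0.0714). The scaffold gene Sin3a, which binds the MXD proteins and MNT directly, was at 94.1 ± 2.64 CPM in MaxKO and 95.8 ± 6.92 CPM in Ctrl libraries, and Sin3b at 121 ± 6.75 CPM in MaxKO and 112 ± 11.3 CPM in Ctrl libraries. Hdac1 was at 299 ± 19.6 CPM in MaxKO and 310 ± 11.7 CPM in Ctrl libraries.

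Of 13 genes for partners of MGA in PRC1.6, 1 rose, 1 fell and 11 were not called (median -0.01), a share below the 23.1% of all genes called. The number lower ran from 0 to 2 in the fits without 1 library, which called 15.5% to 27.8% of all tested genes. It was 3 against controls 1 and 2 alone, where 44.6% of all tested genes were called. Pcgf6, the subunit that defines this complex, rose by 0.24 (adjusted p = 0.0486, edgeR) and Yaf2 fell by 0.34 on the log2 scale (adjusted p = 0.0418, edgeR). Both calls ended without any 1 MaxKO library, without control 1 or 2 (adjusted p up to 0.149 and 0.108) and against controls 3 and 4 alone (0.144 with adjusted p = 0.287 for Pcgf6, and -0.12 with 0.355 for Yaf2). The call of Pcgf6 also ended with upper-quartile scaling (0.114), without any filter (0.0624) and when 4 libraries had to reach 1 CPM (0.0591), and that of Yaf2 with limma-voom (0.0525). L3mbtl2 and E2f6, which bind the same complex, were at 0.12 and -0.15 and did not pass. Of 19 germ cell and meiosis genes found in the tables, 14 were under the filter on low counts, with no library above 0.842 CPM. Of the 5 tested, none rose and 3 fell, against 12.2% of all genes called lower. Without any filter, which tests more of the list, 4 were lower, and 15.4% of all tested genes were called. Tex101, which encodes a surface protein of germ cells, fell to 1.88 ± 0.431 CPM in MaxKO against 22.0 ± 0.886 CPM in Ctrl libraries (-3.54, adjusted p = 3.51e-07, edgeR, SD, n = 4 each). Zcwpw1, which encodes a histone reader of meiotic cells, fell to 31.0 ± 2.19 CPM in MaxKO against 56.9 ± 9.42 CPM in Ctrl libraries (-0.88, adjusted p = 0.000327, edgeR), and the meiotic cohesin gene Stag3 fell by 0.74 (adjusted p = 0.0311, edgeR). The calls of Tex101 and Zcwpw1 stood in all 8 fits without 1 library, and that of Stag3 ended without MaxKO library 2, 3 or 4 or control 2 or 4 (adjusted p up to 0.0943) and against controls 1 and 2 alone (0.0583). Tdrkh and Smc1a, the other tested genes, were at -0.001 and -0.003.

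Of 8 tested genes for other E-box factors of the same structural class, 1 rose and none fell (median 0.13), against 10.9% of all genes called higher. Without control 3, 3 were higher, and against controls 1 and 2 alone 2 were higher and 2 lower. These fits called 27.5% and 44.6% of all tested genes. Srebf2, the regulator of sterol synthesis, rose by 0.26 (adjusted p = 0.0184, edgeR), a call that ended without MaxKO library 1, 2 or 3 or control 1 or 2 (up to 0.0703) and against controls 3 and 4 alone (0.104). Of 14 tested genes known from other cells as targets of MYC and MAX, 2 rose, 1 fell and 11 were not called (median -0.01), against 10.9% of all genes called higher and 12.2% called lower. These counts depended on the controls: 4 were higher and 2 lower without control 3, 2 higher and 3 lower without control 4, 6 higher and 3 lower against controls 1 and 2 alone, and none higher and 2 lower against controls 3 and 4 alone. In that order, these fits called 27.5%, 27.8%, 44.6% and 20.7% of all tested genes. Without MaxKO library 2 or 4 or control 2, none was higher. Cad rose by 0.37 and Shmt2 by 0.55, and Ldha, whose counts are less certain because near-identical copies exist in the genome, fell by 0.44 on the log2 scale (adjusted p = 0.0164, 0.0431 and 0.0189, edgeR). The call of Cad ended without MaxKO library 2 or 4 or control 2, that of Shmt2 without any 1 MaxKO library or control 1 or 2, and that of Ldha without MaxKO library 3 or 4 (adjusted p up to 0.0589, 0.122 and 0.0652). Against controls 3 and 4 alone, Cad was at 0.20 (adjusted p = 0.108) and Shmt2 at 0.24 (0.113), and the call of Shmt2 also ended with upper-quartile scaling (0.0676) and without any filter (0.076). Ncl was at 821 ± 11.9 CPM in MaxKO and 814 ± 181 CPM in Ctrl libraries, and Npm1 at 367 ± 22.4 CPM in MaxKO and 349 ± 82.2 CPM in Ctrl libraries (SD, n = 4 each), so that the controls spread more widely than the MaxKO libraries for both. Npm1, like Ldha, has near-identical copies.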

How the data were processed

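RNA was measured in 8 libraries. Per the submitters' processing notes, the authors used bcl2fastq 1.8.4, TopHat2 2.0.12 and HTSeq 0.6.1 with the mm9 genome. The deposited files hold raw counts per gene symbol. Neither annotation nor strand setting is stated there (not given in the sources used here). HTSeq's closing rows, which name no gene (27.0% to 33.1% of all reads listed, mostly reads outside exons or aligned to several places), were left out.

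Genes were kept with filterByExpr. The test was that of edgeR 4.0.16 in R 4.3.3 (TMM, glmQLFit with robust estimation, group as the only term), and SEs were derived from the fold change and F. Alternatives were other scalings and filters, DESeq2 1.42.0, voom from limma 3.58.1, no robust estimation, a replicate block, leaving out each library, either control pair alone, and a term for each library's fraction of reads outside exons. A prior count of 2 was used for log2 CPM. Members, gene lists and alternatives were chosen with earlier results of these data known. Named genes were all members, up to 4 called genes of each list with the smallest p, and the 3 genes most like a member among those averaging at least 1 in log2 CPM. Sin3a, Sin3b, Hdac1, L3mbtl2, E2f6, Tdrkh, Smc1a, Ncl, Npm1, Myc, Mycl1, Mlxipl, Suds3 and the marker genes named fall outside this rule and were picked once their values were known.

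Equal replicate numbers showed no sign of pairing: deviations from the group mean correlated at -0.20 to 0.002 for equal numbers and at -0.22 to 0.20 for unequal numbers. These few correlations cannot exclude a pairing. Libraries of a group differed beyond counting noise (chi-square per degree of freedom 3.86 to 37.7). On counts simulated for this comparison (13276 genes), calls were made for 67.2% of 67 genes with a log2 change of 0.5, 80.6% of 67 with a change of 1 and 97.0% of 66 with a change of 2, and 8 of 171 calls were false. Only 200 genes were changed there, against 3084 called in the data, and genes were drawn independently, without unlike controls. These figures therefore do not give the power or error rate of the comparison itself. Promoters are from RefSeq (GRCm38.p6), and no gene coordinates of mm9 are given. A comparison of the members' proteins was planned but not made here.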

Additional observations from a re-analysis of the deposited data

How the results depend on the processing

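The rise of Mnt and the fall of Mxd1 were called in all 19 alternative fits, at 0.42 to 0.93 and at -0.47 to -0.36 on the log2 scale. Mga, Mxd3 and Mxd4 were called in none. Over the fits that left out 1 library, the difference of Max ran from -0.52 to -0.27, that of Mxd4 from -0.024 (a change of sign, without control 3) to 0.14, the number of members lower in MaxKO from 1 to 2 and that of members higher stayed at 1, and all genes higher ran from 963 (without MaxKO library 2) to 1846 and all genes lower from 1139 to 1929. With only controls 1 and 2, Mxi1 passed the threshold (0.24), the sign of Mxd4 changed (-0.11), 2 members were higher, and 2987 genes were higher and 3081 lower, against 1457 and 1627 in the full data. With a term for each library's fraction of reads outside exons, 2256 genes were higher and 2167 lower, so that 49% of the called genes were lower, against 52.8%. The cause was not tested. With upper-quartile scaling, 62.9% of the called genes were lower, against 52.8%, and the median of all genes was -0.05, but no call of a member changed. With the replicate number as a block, which the labels do not support as a pairing, 1208 genes were higher and 1324 lower, Mnt was at 0.67 (adjusted p = 0.0188) and Mxd1 at -0.41 (adjusted p = 0.0169, edgeR), and no call of a member changed, while those of Brms1l, Ldha, Mlx, Mlxip, Pcgf6, Srebf2, Stag3 and Yaf2 ended. Of the recomputed list counts and levels per kilobase, 191 kept their size and 89 moved. The depth was 472 to 3517 reads per member and library, and the part of counting error in the spread of these genes was not computed.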

Other observations

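Other neuroendocrine genes differed in the same libraries in which Insm1, Chga and Syp did not pass the threshold. Chgb, which encodes a granin of secretory vesicles, was at 191 ± 5.49 CPM in MaxKO and 247 ± 9.42 CPM in Ctrl libraries (SD, n = 4 each) and fell by 0.37 on the log2 scale (adjusted p = 0.00183, edgeR). Dll3, a Notch ligand gene typical of neuroendocrine lung tumour cells, was at 38.2 ± 4.14 CPM in MaxKO and 54.6 ± 6.04 CPM in Ctrl libraries and fell by 0.51 (adjusted p = 0.00398, edgeR). Neither group pair overlapped, which held for 26.4% of all tested genes. The share of all tested genes called was 10.9% higher and 12.2% lower in MaxKO. Uchl1, of the same marker list, went the other way and rose by 0.41 (adjusted p = 0.0496, edgeR), with groups that overlapped.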
